A study of Homo sapiens with 8 samples.

Results

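The genes described here form the polyamine pathway: the enzymes ODC1, AMD1, SRM, SMS, SAT1 and SMOX, the antizymes OAZ1 and OAZ2, and the antizyme inhibitor AZIN1. They were picked by symbol from a table of translational efficiency (TE, ribosome footprints over mRNA) in which the authors compared silenced with control cells. Of the 9 genes, 5 had a row among the 4616 of that table: AMD1, SRM, SMS, OAZ1 and AZIN1. ODC1, OAZ2, SAT1 and SMOX had none, also under their older names, and are not analysed here.

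The cells were WM902B, an established line from a primary melanoma that carries BRAFV600E in every group. They carried a hairpin against the long non-coding RNA TINCR (shTINCR) or a scrambled hairpin (shSCR) at passage 18 and were given cycloheximide, an inhibitor of elongation, at 100 µg/ml for 5 min. The 8 libraries formed 4 groups of 2 biological replicates, with footprints and RNA from each hairpin, and the labels name 1 hairpin per target. The RNA libraries are titled as total RNA while their labels describe poly(A) RNA. The table holds 1 value per gene and hairpin and none of a single library, so replicate spread and depth are unknown. TINCR had 0 rows, so its silencing was not checked here. Of the lineage markers of melanocytes 6 of 7 had a row, against 0 of 4 keratinocyte, 0 of 3 leukocyte and 1 of 3 fibroblast markers, the last being COL1A2.

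Polyamines are small cations that bind RNA and are needed for growth. Ornithine decarboxylase (ODC1) makes putrescine. AMD1 decarboxylates S-adenosylmethionine, and the spermidine synthase SRM and the spermine synthase SMS use the product to lengthen putrescine to spermidine and spermidine to spermine. SAT1 and SMOX act in the reverse direction. The pathway is known for control at the ribosome. Polyamines promote a frameshift that is needed to make antizyme, which binds ODC1 and sends it to the proteasome. The mRNAs of AMD1 and AZIN1 carry upstream reading frames that respond to polyamines, and AZIN1, a relative of ODC1 without its activity, takes antizyme away from it.

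The annotated 5′ starts of the mRNAs of the measured members are shown first. They are taken from RefSeq on GRCh38.p14, which held entries for 4 of the 5 measured genes. Lower case marks 10 bases of DNA before the annotated start and capitals the first 20 bases of the transcript, 5′ to 3′ on the strand of the gene. For AMD1, which has 3 annotated starts, 1 is shown.
SRM, chr1:11059999-11060028, minus strand: ggcgggcggaGCTGGTCCCGTTGTGCTGCG
AMD1, chr6:110874775-110874804, plus strand: cagcgctctcGCTTACACAGTATGGCCGGC
SMS, chrX:21940699-21940728, plus strand: cccacctcctAGTCCTGGCCTCCCCGGGCG
OAZ1, chr19:2269476-2269505, plus strand: gcctgggcgcAGCATCTATAAAGGCGGGCG
None of the 6 annotated starts of these 4 genes had the pattern of a terminal oligopyrimidine (TOP) mRNA, searched on the transcript strand only as a first base C followed by at least 4 bases that are C or T. That pattern stood at 4.07% of all 35116 RefSeq starts with a full window. The mRNAs in these cells may start elsewhere, and the absence of these letters says nothing about any factor. For comparison, 329 of the 3735 genes of the table with a RefSeq start had the pattern at 1 or more starts. Of these genes 22.8% fell and 4.86% rose in the authors' deposited table, where 8.17% of all genes fell and 8.23% rose. The latter shares are over genes with and without a RefSeq start, and those of the 3735 genes were not computed.

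In shSCR cells, 4 of the 5 measured members lay among the lowest 10% of all genes by TE and 1, SRM, among the highest 10%. The antizyme inhibitor AZIN1 had a log2 TE of -3.41 in shSCR and -3.38 in shTINCR cells in the authors' deposited table. Only 5 of the 4616 genes had a lower log2 TE in shSCR cells. They were UHMK1, LHFPL2, ATF4, STARD7 and APOLD1, named after their values were seen. ATF4, which drives the response to amino acid lack, is itself known for upstream reading frames. Whether such frames account for the low TE of ATF4 or AZIN1 was not tested. With silencing, log2 TE of ATF4, UHMK1 and STARD7 rose by 0.99, 0.45 and 0.42 in the authors' deposited table. These changes passed the authors' adjusted p below 0.05. The changes of LHFPL2 (0.14), APOLD1 (0.22) and AZIN1 (0.03) in the authors' deposited table did not. These genes were picked by a low shSCR value, which also enters the change, so a lean toward a rise was built in. The antizyme OAZ1 had a log2 TE of -1.27 in shSCR and -1.15 in shTINCR cells in the authors' deposited table, at percentiles 8.69 and 10.7 of all genes.

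Among the enzymes, AMD1 had a log2 TE of -1.48 in shSCR and -1.62 in shTINCR cells in the authors' deposited table, at percentiles 5.87 and 4.46. For SMS the authors' deposited table gave -1.42 and -1.61, at percentiles 6.65 and 4.53. SRM stood apart from both, with 2.08 in shSCR and 2.50 in shTINCR cells in the authors' deposited table, at percentiles 99.1 and 99.5. Spermidine synthase and spermine synthase, which act one after the other, thus differed in log2 TE by 3.51 in shSCR cells, which is 11.4-fold. In shTINCR cells that gap in log2 TE was 4.11, or 17.3-fold. Whether the gap itself changed was not tested.

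The order of log2 TE was SRM, OAZ1, SMS, AMD1 and AZIN1 in both conditions. SMS and AMD1, neighbours in that order, differed by 0.06 in shSCR and by 0.0055 in shTINCR cells in log2 TE, and OAZ1 lay above SMS by 0.15 and 0.46. The next steps were wider, with AZIN1 below AMD1 by 1.93 and 1.77 and SRM above OAZ1 by 3.35 and 3.65. The table gives no spread of a TE level, so none of these gaps could be tested. TE sets footprints against mRNA of the same gene, which removes gene length only where both were counted over the same part of it. No source used here states which part was counted, so levels are less sure between genes than between conditions within a gene.

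**Figure D1:**
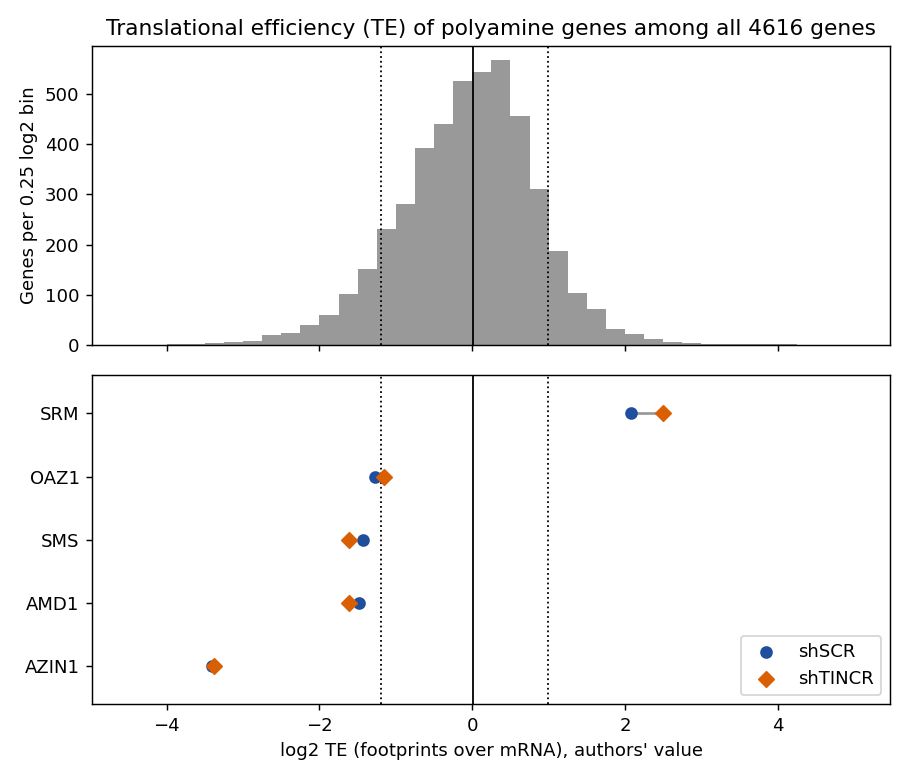
The upper panel is a histogram of log2 TE in shSCR cells over 4616 genes, and the lower panel shows log2 TE of the 5 measured members in shSCR (circles) and shTINCR (diamonds) cells, each point 1 value of the authors' table without an error. The solid line marks the median and the dotted lines the bounds of the lowest and highest 10% of all genes in shSCR cells; in both conditions SRM lies far right of the upper line and AZIN1 far left of the lower one.

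Silencing was then compared with control. SRM was the 1 measured member whose TE rose at the authors' adjusted p below 0.05, and 0 fell. Over all genes tested, 8.23% rose and 8.17% fell (16.4% in either direction), and 1 of 5 members is too few to read as a shift of the pathway. The median log2 change was 0.03 over the 5 members and 0.02 over all genes, with 3 members above 0 and 2 below. The changes of the members spanned -0.19 to 0.42. Those of all 4616 genes spanned -1.14 to 1.28 with an SD of 0.249, and a range widens with the number of genes.

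TE of SRM rose 1.34-fold in the authors' deposited table, by 0.42 on the log2 scale (adjusted p = 0.035). That change was the 243rd largest upward change among the 4616 genes. The 2 versions of the authors' estimate gave SRM the same size of change, 0.42 each, but unequal p-values. The authors' deposited table gave a p of 0.00468 in the first and 8.49e-07 in the second version and kept the larger. The standard error implied by change and p, taking the p as that of a normal statistic, was 0.149 in the first version and 0.0858 in the second, a ratio of 1.73. Only 25 genes (0.542% of all), SRM included, had a ratio at least as large. The call of SRM was lost at a threshold of 0.01 and with a Bonferroni adjustment, where 3.62% and 0.975% of all genes still rose. RefSeq names 3 pseudogenes of SRM, and any reads common to gene and pseudogene could make its value uncertain. Whether there were such reads was not tested.

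The other enzymes did not pass. AMD1 had a log2 change of -0.13 in the authors' deposited table (adjusted p = 0.484). The approximate 95% interval from its implied standard error ran from -0.36 to 0.10, so that a fall to 0.777-fold or a rise to 1.07-fold lay at its ends. SMS had a log2 change of -0.19 in the authors' deposited table (unadjusted p = 0.0989, adjusted p = 0.26), with an approximate interval from -0.41 to 0.03. Both point estimates lay below 0 while that of SRM lay above, but the difference between the genes was not tested. AMD1 has 4 named pseudogenes and SMS has 1, and the gene of 1 small nucleolar RNA lies inside AMD1 in RefSeq.

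The regulators of ODC1 did not pass either. OAZ1, whose synthesis needs the frameshift, had a log2 change of 0.12 in the authors' deposited table (adjusted p = 0.408) and an approximate interval from -0.06 to 0.31. RefSeq names 1 pseudogene of OAZ1 and 0 of AZIN1. AZIN1 had a log2 change of 0.03 in the authors' deposited table (adjusted p = 0.916) and an approximate interval from -0.23 to 0.28, that is from 0.854-fold to 1.22-fold. Of all genes among the lowest 10% by TE in shSCR cells, to which AMD1, SMS, OAZ1 and AZIN1 belong, 12.1% rose and 3.68% fell. The band was cut on the shSCR value, which also enters the change, so error in that value tilts its genes toward a rise. Of the 4 members in this band 0 were called, too few genes to read against these shares. Missing the threshold does not show that TE stayed the same, and any change within these intervals remains possible. The table gives OAZ1 a single value and none for either side of the frameshift site, so frameshifting itself was not measured. It likewise gives AMD1 and AZIN1 no separate value for the upstream reading frames.

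**Figure D2:**
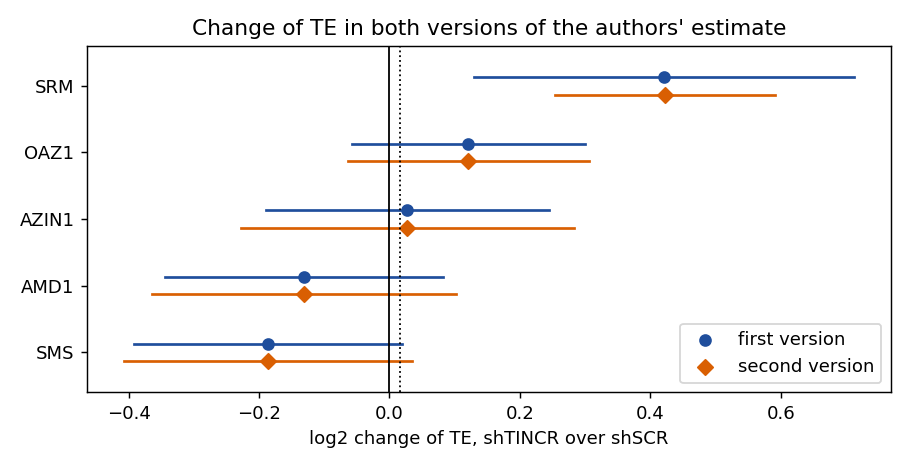
The log2 change of TE (shTINCR over shSCR) of the 5 measured members is plotted for the first (circles) and second (diamonds) version of the authors' estimate; bars are approximate 95% intervals from the standard error that change and p imply, and the dotted line is the median of all genes. The bars of SRM exclude 0 in both versions and differ in width, while those of AMD1, SMS, OAZ1 and AZIN1 include 0. As the final p was the larger of the pair, the call of SRM on it fixed that both of its bars exclude 0.

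SRM was then set beside other mRNAs of high TE. Among the highest 10% of genes by TE in shSCR cells, 8.01% rose and 7.36% fell, near the 8.23% and 8.17% of all genes. A log2 TE of 2 or more in shSCR cells was found for 53 genes, a bound set after the value of SRM was seen, of which 7 fell (13.2%) and 2 rose (3.77%), counts too small to read against the shares of all genes. The 2 that rose were SRM and the growth factor midkine (MDK), with a log2 change of 0.63 in the authors' deposited table (adjusted p = 0.00546). Both bands were cut on the shSCR value, which also enters the change, so genes picked for a high value lean toward a fall. The genes nearest to SRM in log2 TE of both conditions, a likeness over 2 values, were CST3, the protease inhibitor cystatin C, and ECH1, an enzyme of fatty acid oxidation. CST3 had a log2 TE of 2.11 in shSCR and 2.39 in shTINCR cells and a log2 change of 0.28 in the authors' deposited table (adjusted p = 0.287). ECH1 had 2.26 and 2.48 and a log2 change of 0.22 in the authors' deposited table (adjusted p = 0.296). Nearness in both values keeps the changes of CST3 and ECH1 close to that of SRM, so they are no separate result.

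**Figure D3:**
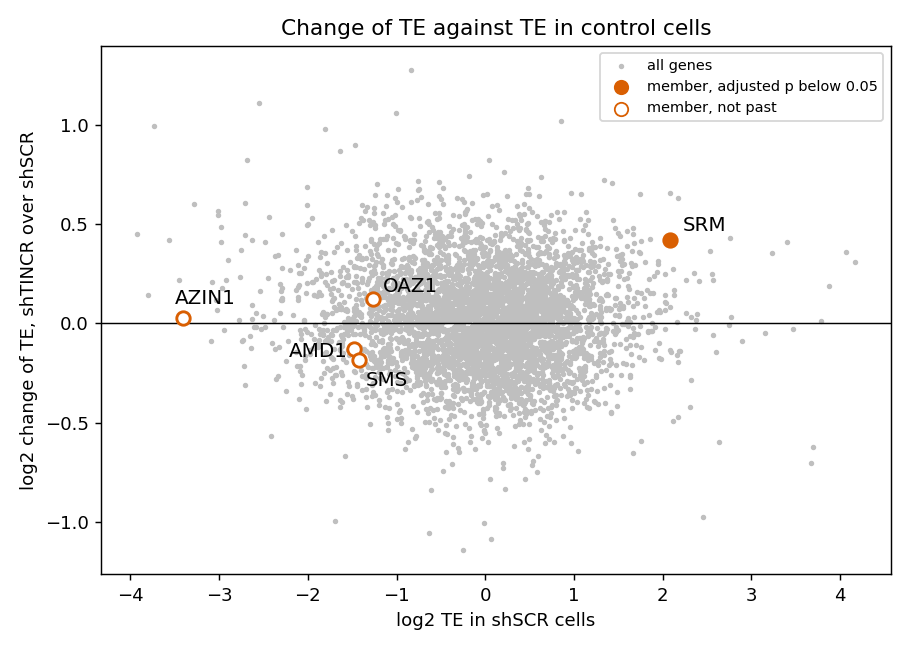
Each of the 4616 genes is a grey point at its log2 TE in shSCR cells (x axis) and its log2 change of TE, shTINCR over shSCR (y axis); ringed points are members, filled where the adjusted p was below 0.05. SRM (2.08, 0.42) is filled, and the other members lie on the left with changes between -0.19 and 0.12. The x value also enters the y value, so error in it alone gives a downward tilt.

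Further lists covered genes linked to the supply, use or transport of polyamines, regulators of ODC1 and other mRNAs read through a programmed frameshift. They formed 7 groups with 45 genes in all, of which 23 had a row. Of these 3 rose and 1 fell, beside 8.23% and 8.17% of all genes, with a median log2 change of 0.07. A low TE was not shared by these genes, since 2 of the 23 (ATP13A3 and SLC18B1, named after their values were seen) were among the lowest 10% in shSCR cells, and their median log2 TE there was 0.08 against -1.42 for the members. Of other polyamine enzymes and regulators (OAZ3, AZIN2, PAOX, SAT2 and AGMAT), 0 of 5 had a row.

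The list for supply of ornithine and S-adenosylmethionine, which also holds AHCY, AHCYL1 and AHCYL2, had 7 measured genes of 10. Of these 1, AHCY, fell and 0 rose, with a median log2 change of -0.10. Over all genes 8.17% fell and 8.23% rose, and 7 genes are too few to read against these shares. TE of AHCY, which clears the S-adenosylhomocysteine left by methylation, fell by 0.34 on the log2 scale in the authors' deposited table (adjusted p = 0.000765). Its log2 TE was 0.28 in shSCR and -0.07 in shTINCR cells in the authors' deposited table. ALDH18A1, which makes the precursor of proline and ornithine from glutamate, had a log2 change of -0.35 in the authors' deposited table that did not pass (adjusted p = 0.155).

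Methionine salvage, which recycles the methylthioadenosine that SRM and SMS release, had 3 measured genes of 5, with 1 that rose and 0 that fell (median 0.17). Beside the 8.23% of all genes that rose and the 8.17% that fell, 3 genes are too few to read. ADI1, a dioxygenase near the end of the salvage route, rose by 0.32 on the log2 scale in the authors' deposited table (adjusted p = 0.0402). MTAP, its first enzyme, had a log2 change of -0.29 in the authors' deposited table (adjusted p = 0.137). In hypusination, the transfer of part of spermidine onto the translation factor eIF5A, 0 of 2 measured genes of 4 passed. Of all genes 16.4% passed, and 2 genes are too few to set against that. The transferring enzyme DHPS had a log2 change of 0.18 in the authors' deposited table (adjusted p = 0.413). Its substrate EIF5A had 0.07 (adjusted p = 0.652) at a high log2 TE of 1.51 in shSCR cells in the authors' deposited table.

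For transport of polyamines and their precursors, 7 of 13 genes were measured, of which 2 rose and 0 fell (median 0.10). With 8.23% of all genes rising and 8.17% falling, 7 genes are too few to read as a shift of transport. SLC7A1, the carrier of arginine, lysine and ornithine, rose by 0.36 on the log2 scale in the authors' deposited table, close to the threshold (adjusted p = 0.0477). SLC3A2, a chain of amino acid exchangers that has been linked to polyamine export, rose by 0.30 in the authors' deposited table (adjusted p = 0.00804). The remaining 5 did not pass and spanned -0.13 to 0.21. Of 3 measured regulators of ODC1 out of 6, 0 passed, too few to read beside the 16.4% of all genes that passed. MYC, a transcription factor that activates ODC1, stood at 0.11 in the authors' deposited table (adjusted p = 0.527). NQO1, which can shield ODC1 protein from degradation, stood at -0.11 in the authors' deposited table (adjusted p = 0.455). PEG10, another human mRNA read through a programmed frameshift, had a log2 change of -0.13 in the authors' deposited table (adjusted p = 0.416), while OAZ1, above, had 0.12.

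**Figure D4:**
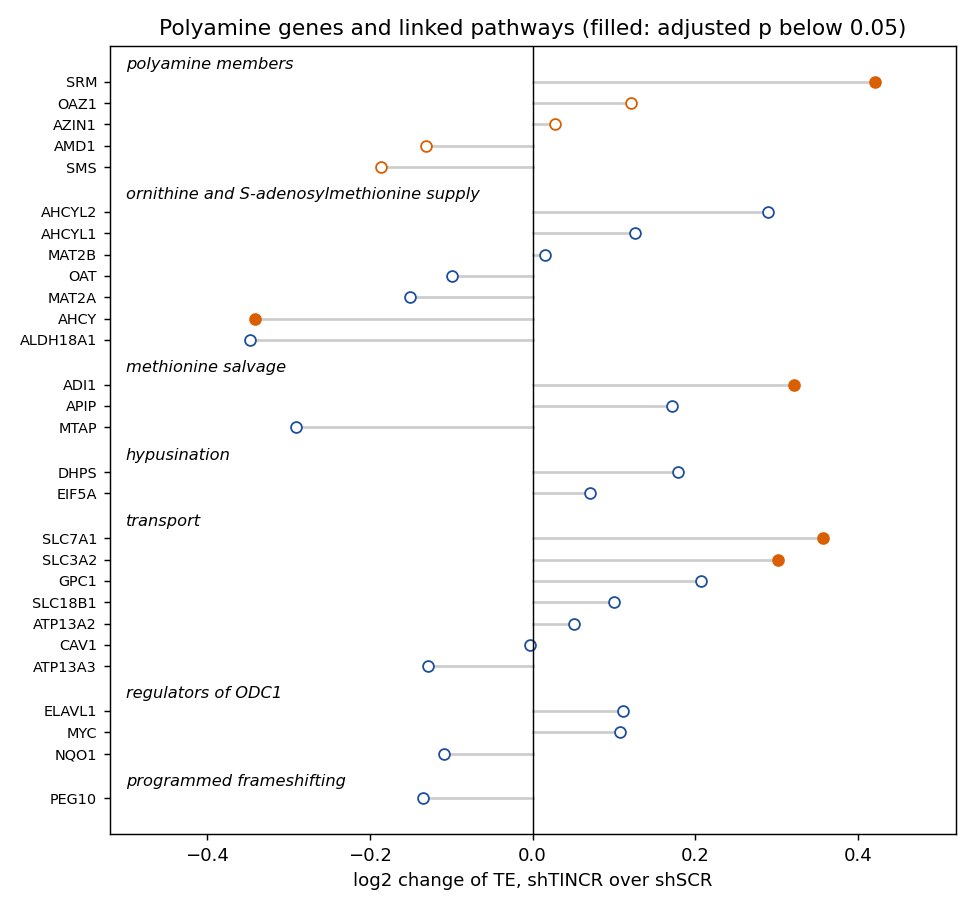
The log2 change of TE (shTINCR over shSCR, x axis) is plotted for the 5 measured members and the 23 measured genes of the linked lists, 1 point per gene without an error, filled where the adjusted p was below 0.05. Filled points are SRM, ADI1, SLC7A1 and SLC3A2 on the right and AHCY on the left.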

How the data were processed

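Per the file headers, the authors' log2 values are TE under each hairpin and its change, the latter as first, second and final estimate. Per the file headers too, each estimate has a p-value, and the final one also an adjusted p-value. From the values, the final p was the larger of the pair in all 4616 rows, and adjusting it by Benjamini-Hochberg gave the deposited adjusted p. No source used here states the tool behind these columns or how the 4616 rows were selected. The submitters' processing notes name build hg19 and, without roles, DESeq 1.10.1, HTSeq 0.5.3p9, Bowtie2 2.1.0, TopHat2 2.0.8, SAMtools 0.1.18 and CASAVA 1.9.

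A gene was called where the deposited adjusted p was below 0.05. Folds are 2 to the power of the log2 change. Approximate intervals are the change ± 1.96 implied standard errors and are not the authors'. Named are all measured members, in each linked list the genes past the threshold and the 2 with the smallest p, and the 2 genes nearest to a called member. The members and lists were chosen with earlier results of these data known, so no list was tested. Alternatives were the versions of the estimate, centring, Bonferroni adjustment, a filter on the implied standard error and other thresholds. The adjustment was tested on simulated data. The work used pandas 2.3.3, scipy 1.17.1, numpy 2.4.6 and matplotlib 3.10.9 under Python 3.11.15.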

Additional observations from a re-analysis of the deposited data

How the results depend on the processing

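Across the alternatives, 34 of 37 values for the 5 members and their counts kept their direction and their side of the threshold. The exceptions all concern SRM. With Bonferroni its log2 change of 0.42 no longer passed, and the number of members that rose was 0 with Bonferroni and 0 at a threshold of 0.01. In its other alternatives the adjusted p of SRM ranged from 3.88e-05 in the second version to 0.035. No alternative reversed a direction, but many of these outcomes were fixed in advance. Bonferroni adjustment, the filter and other thresholds used the same log2 changes, and centring used the same adjusted p-values. Because the final p was the larger of the pair in all 4616 rows, SRM had to pass in both versions. The tally is therefore no measure of stability. Centring on the median moved every log2 change by 0.0161. No paired analysis was possible because the table has no column of a single library, and leaving out replicates was not run for the same reason. Depth and replicate spread are unknown, so the implied standard errors are the only measure of error for a single change. They assume a normal statistic and do not cover any reads shared with pseudogenes or the use of a single hairpin per target.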
